A study of Homo sapiens with 6 samples.

Results

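The RAB genes, which encode the largest family of small GTPases in human cells, were followed through knockdown of the transcription factor *PAX2* in AN3CA cells, which are an established line from a human endometrial cancer. Members were taken by symbol alone: every gene in the deposited table named RAB plus a number, with an optional letter and an optional last digit, which gave 59 of 17471 genes. The family was singled out because *RAB39A* was among the genes that differed most between these same libraries, so the values of *RAB39A* are given here as a description without a test. The other 58 members entered by name and not by their values.

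RNA-seq was compared between 6 libraries. In 3 of them (shEV) the cells carried the empty lentiviral hairpin vector pGFP-C-shLenti, and in the other 3 (shPAX2) the same vector carried a 29-mer short hairpin RNA against *PAX2*. The labels call the genotypes WT and PAX2 KD, although both groups were transduced and selected with puromycin, and elsewhere in its text the study calls the AN3CA control scrambled. A single hairpin was used, and nothing in the labels says that replicates were separate cultures, so the p-values measure the spread between these libraries, which may be technical.

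RAB proteins switch between a GTP-bound form, which recruits effectors to a particular membrane, and a GDP-bound form, which a chaperone (GDI) keeps in the cytosol. Exchange factors (GEFs) load GTP and GTPase-activating proteins (GAPs) end the signal, so that each member marks a step of vesicle budding, transport or fusion. Epithelial cells, the lineage given for AN3CA in the labels, use several RABs to sort proteins between apical and basolateral surfaces.

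Levels are given as TPM, in which the reads of a gene are divided by its length and then by the total of the library, so that different genes can be set side by side. Changes are log2 fold changes of shPAX2 over shEV on log2(TPM + 0.5), with their standard error (SE). That scale understates the change of low genes. Tests are limma fits over the 13163 genes that reached 0.5 TPM in 3 or more libraries, adjusted by Benjamini-Hochberg. A gene is called at an adjusted p under 0.05, and past the fold threshold when its log2 fold change is also at least 1 in size.

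Among the members, 49 passed the filter on low values. The fold threshold was passed by 5 (10.2%), of which 2 were higher in shPAX2 (*RAB39A* and *RAB3C*) and 3 were lower (*RAB17*, *RAB31* and *RAB9B*). Over all tested genes the share was 4.54%, made up of 1.43% higher and 3.11% lower. Leaving out *RAB39A*, whose change led to the choice of the family, 4 of 48 members (8.33%) passed. Most of the family moved little: 40 of 49 lay within 0.5 of 0 on the log2 scale (81.6%, against 81.3% of all tested genes). The plot of log2 fold changes by membrane site shows a dense column of members near 0 and a few far from it.

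**Figure D1:**
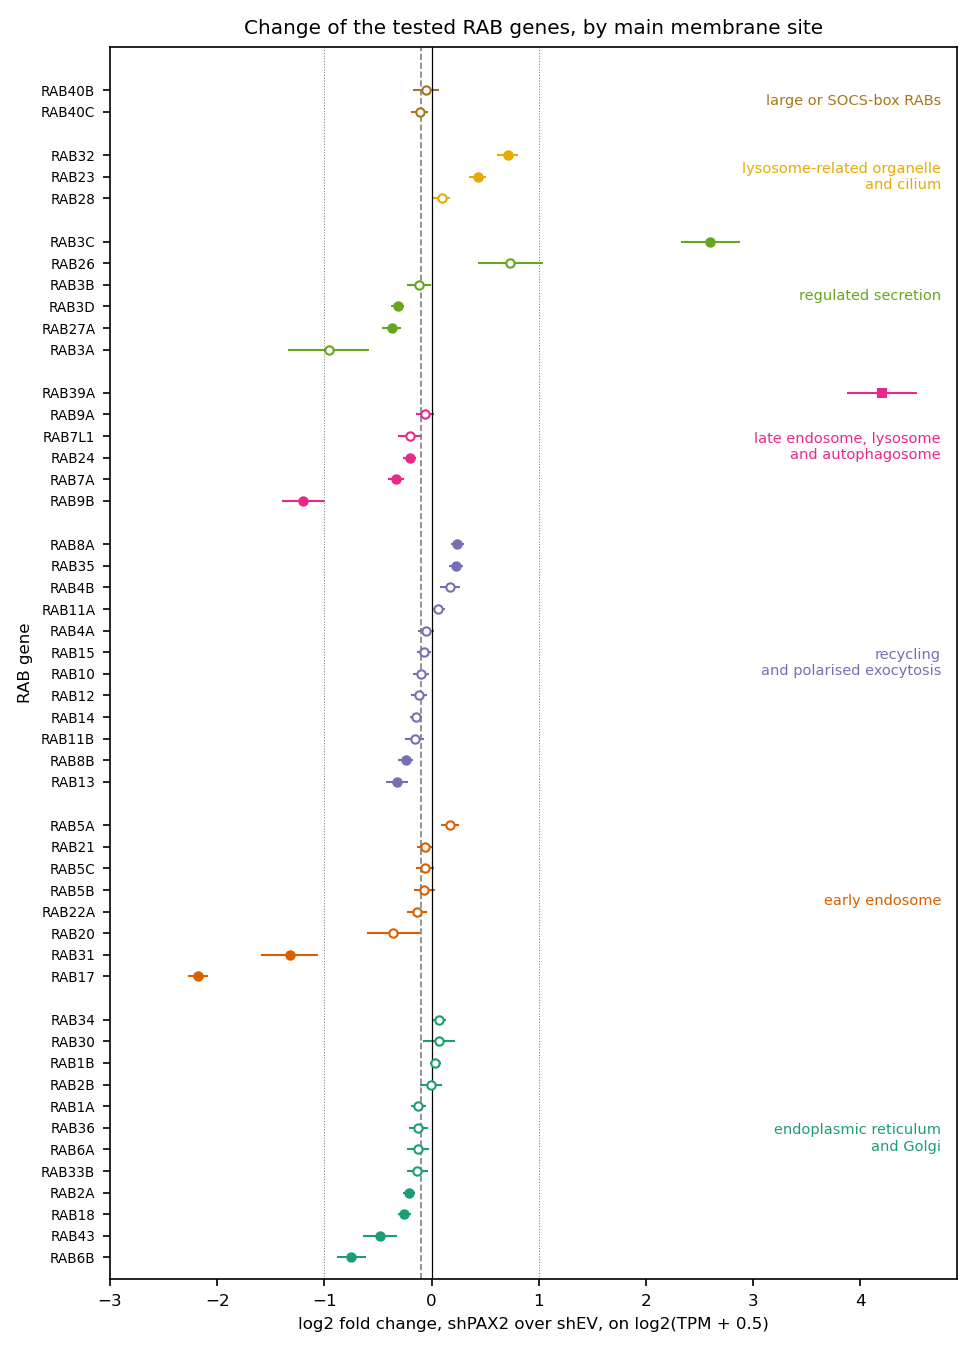
Log2 fold change (shPAX2 over shEV, on log2(TPM + 0.5)) of the 49 tested RAB genes, grouped by the membrane site assigned to the protein. Bars are ± 1 SE, n = 3 libraries per group. Filled circles have an adjusted p under 0.05, open circles do not, and the square is *RAB39A*, which is shown without a test; dotted lines mark the fold threshold and the dashed line the median of all tested genes (−0.10).

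*RAB39A*, a GTPase of late endosomes and lysosomes with a role in phagosome maturation and autophagy, had the largest log2 fold change of the family. Its levels were 0.314, 0.889 and 1.43 TPM in shEV replicates 1 to 3, against 20.2, 24.2 and 26.1 TPM in shPAX2. All 3 shPAX2 libraries lay far above all 3 shEV libraries. The shEV values rest on few reads (3, 14 and 23), while the shPAX2 values rest on 551, 581 and 453. The means were 0.877 ± 0.558 TPM and 23.5 ± 2.99 TPM (SD, n = 3 each), a ratio of 26.8, and the log2 fold change was 4.20 (SE 0.32). With this change *RAB39A* went from below all tested members but *RAB3C* to a level near that of *RAB23* (28.3 ± 0.748 TPM in shPAX2) and *RAB3D* (22.5 ± 0.910 TPM), 2 members of intermediate level.

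Its paralog *RAB39B*, a GTPase best known from neurons, reached at most 0.0325 TPM in any library and was not tested. The difference in the RAB39 pair was therefore seen at 1 of its 2 genes, and the depth does not allow a statement on the other. *DENND5A* and *DENND5B*, exchange factors reported to act on RAB39 proteins and named here after their values were seen, had small log2 fold changes of 0.16 (limma adjusted p = 0.104) and −0.30 (limma adjusted p = 0.00691; 0.183 with quantile normalization).

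The *RAB39A* gene spans 107799174 to 107834208 of chromosome 11 (plus strand of GRCh37), and its annotated start is 0.155 kb from that of *SLC35F2*, a solute carrier gene transcribed the other way. *SLC35F2* was at 43.1, 44.9 and 46.2 TPM in shEV and at 47.6, 58.3 and 57.3 TPM in shPAX2. Its groups did not overlap, and its log2 fold change was 0.27 (SE 0.08, limma adjusted p = 0.0261), far smaller than that of *RAB39A*. That call was lost in 5 of the 6 fits without 1 library (limma adjusted p up to 0.103), all but the one without shPAX2 replicate 1. *CUL5*, the next tested gene beyond *RAB39A*, a cullin of ubiquitin ligases, fell on the log2 scale by 0.32 (limma adjusted p = 0.00414). The stretch between the 2 starts is shown because it is the only sequence that *RAB39A* and *SLC35F2* share upstream. It is 154 bases long, at chr11:107799020-107799173 (GRCh37, plus strand, read towards *RAB39A*), it overlaps no annotated gene, and it equals the end of the RefSeq promoter entry for *RAB39A*.
RAB39A to SLC35F2: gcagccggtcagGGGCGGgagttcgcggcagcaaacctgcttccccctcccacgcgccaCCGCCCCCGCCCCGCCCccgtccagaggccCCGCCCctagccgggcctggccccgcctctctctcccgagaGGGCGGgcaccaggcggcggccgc
Capitals mark the GC box, GGGCGG on either strand (CCGCCC on the strand shown). It matched 6 times counting both strands, with 1 match overlapping the next. Of 35116 promoter stretches of the same length, 37.1% hold at least 1 match and 0.869% hold as many. The stretch has a GC content of 80.5% (median of all stretches 59.7%) and 18 CpG dinucleotides (median 7). The CCAAT box (CCAAT, in 23.9% of the stretches) had no match on either strand of this window, nor did the E-box (CANNTG, in 45.0%). The TATA box (TATAAA) was in 6.84% of the stretches and the AP-1 motif (TGANTCA) in 4.26%, and neither matched here. A match describes letters and not a bound site.

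*RAB3C* was the only other member that was higher past the fold threshold. It belongs to the RAB3 group, which acts on secretory and synaptic vesicles. Levels were 0.738, 0.785 and 0.110 TPM in shEV and 5.63, 5.29 and 5.59 TPM in shPAX2. The shPAX2 libraries agreed closely with each other and did not overlap with shEV, where the values stood on 4, 7 and 1 reads. The log2 fold change was 2.60 (SE 0.27, limma adjusted p = 0.000258), and the ratio of the means was 10.1 (0.544 ± 0.377 against 5.50 ± 0.184 TPM, SD, n = 3 each). The gene spans 57878048 to 58155221 of chromosome 5 (plus strand of GRCh37).

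The other RAB3 genes did not follow it. *RAB3D*, the most abundant of them, was at 27.4, 27.9 and 29.3 TPM in shEV and fell to 23.4, 22.6 and 21.6 TPM (log2 fold change −0.32, SE 0.06, limma adjusted p = 0.00351). *RAB3A*, the RAB3 form best known from synaptic vesicles, was at 4.22, 7.76 and 10.6 TPM in shEV and 4.14, 4.003 and 2.32 TPM in shPAX2. Its groups did not overlap, but the gap between them was narrow beside the spread of shEV, and its log2 fold change of −0.96 (SE 0.38) did not pass (limma adjusted p = 0.0967). Without shEV replicate 1, *RAB3A* passed both thresholds. *RAB3B* was close to level, at 3.54 ± 0.267 and 3.22 ± 0.287 TPM (limma adjusted p = 0.441). Summed over the 4 RAB3 genes, the level was 36.2 to 43.4 TPM in shEV and 32.7 to 36.7 TPM in shPAX2, so *RAB3C* moved from 1.42% ± 1.01 to 15.9% ± 1.07 of RAB3 transcripts (SD, n = 3 each) in a total whose ranges overlapped.

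*RAB27A* and *RAB26* are the other tested members of regulated secretion. *RAB27A*, which docks lysosome-related organelles and exosome precursors, was at 9.21, 9.39 and 8.47 TPM in shEV and fell to 6.77, 7.48 and 6.34 TPM (log2 fold change −0.37, SE 0.09, limma adjusted p = 0.0102). With quantile normalization its log2 fold change was −0.16 and it was not called (limma adjusted p = 0.205). *RAB26*, linked to secretory granules and to autophagy of synaptic vesicles, was at 4.70, 3.55 and 1.70 TPM in shEV and 5.39, 5.44 and 5.62 TPM in shPAX2. Its groups did not overlap and its log2 fold change of 0.73 (SE 0.30) did not pass (limma adjusted p = 0.0994), but it passed both thresholds without shEV replicate 1, the library of the lowest depth.

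**Figure D2:**
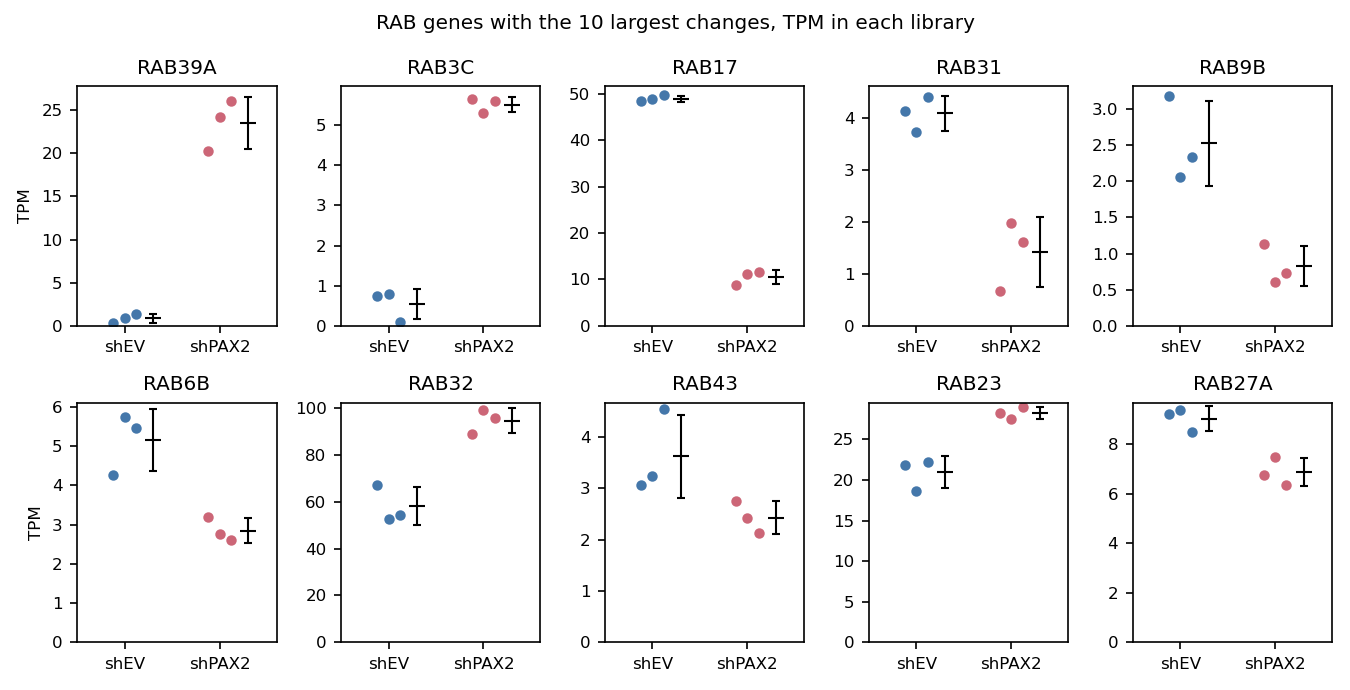
TPM (linear axes from 0) in each of the 3 shEV (blue) and 3 shPAX2 (red) libraries for the RAB genes with the 10 largest log2 fold changes among those with an adjusted p under 0.05. Black bars are mean ± SD. The points of the groups do not overlap in any of the 10 panels, but genes picked for large called changes tend to show this. Of all tested genes, 54.9% had no overlap. *RAB39A*, given without a test, was below 1.5 TPM in shEV and above 20 TPM in shPAX2.

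*RAB17* showed the largest fall. This GTPase of epithelial cells acts in recycling endosomes and in transport across polarized cells. It was at 48.4, 48.8 and 49.6 TPM in shEV and at 8.79, 11.1 and 11.5 TPM in shPAX2. Replicates were tight in both groups, and shPAX2 kept 21.4% of the shEV mean (48.9 ± 0.643 against 10.5 ± 1.48 TPM, SD, n = 3 each). The log2 fold change was −2.18 (SE 0.10, limma adjusted p = 8.31e-07), and it lay between −2.25 and −2.06 over all settings tried. The gene spans 238482965 to 238510257 of chromosome 2 (minus strand of GRCh37). In shEV it was among the higher members, near *RAB7A* (53.7 ± 2.78 TPM), and in shPAX2 it was near *RAB36* (10.2 ± 0.705 TPM).

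*RAB31* and *RAB9B* also fell past the fold threshold, both from low levels. *RAB31*, a relative of RAB5 that moves cargo from the trans-Golgi network to endosomes, was at 4.15, 3.74 and 4.41 TPM in shEV and 0.671, 1.99 and 1.62 TPM in shPAX2 (log2 fold change −1.32, SE 0.26, limma adjusted p = 0.00534). The shPAX2 libraries were uneven, with replicate 1 lowest. *RAB9B*, a paralog of the late endosome GTPase *RAB9A*, which returns mannose 6-phosphate receptors to the Golgi, was at 3.19, 2.06 and 2.33 TPM in shEV and 1.14, 0.605 and 0.728 TPM in shPAX2 (log2 fold change −1.20, SE 0.20, limma adjusted p = 0.00165). *RAB9B* stayed called but fell short of the fold threshold with a pseudocount of 1 (−0.95) and with quantile normalization (−0.95). Neither pair of groups overlapped. On GRCh37, *RAB31* is on chromosome 18 from 9708272 to 9862548 (plus strand) and *RAB9B* on chromosome X from 103077257 to 103087187 (minus strand).

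In each of these cases a more abundant close relative moved less on the log2 scale. *RAB22A*, the nearest relative of *RAB31*, had a log2 fold change of −0.14 (limma adjusted p = 0.254), and *RAB31* made up 27.4% ± 0.260 of the summed pair in shEV but 5.93%, 17.3% and 14.8% in the shPAX2 libraries. *RAB9A*, at 86.1 ± 9.72 and 82.1 ± 0.406 TPM, had a log2 fold change of −0.06 (limma adjusted p = 0.572), while *RAB9B* went from 2.85% ± 0.599 to 0.992% ± 0.332 of the pair. *RAB6B*, the form of the Golgi GTPase RAB6 that is highest in brain, was at 4.25, 5.74 and 5.46 TPM in shEV and 3.20, 2.75 and 2.60 TPM in shPAX2 (log2 fold change −0.75, SE 0.14, limma adjusted p = 0.00246). The ubiquitous *RAB6A* gave −0.13 (limma adjusted p = 0.337). Reads of *RAB6A* and its retrogene *RAB6C* may be hard to tell apart, and *RAB6C* stayed at or below 0.0360 TPM. The stacked subfamily plot shows *RAB3C*, *RAB31* and *RAB6B* as smaller parts of totals held mostly by *RAB3D*, *RAB22A* and *RAB6A*. These larger forms moved less on the log2 scale, but *RAB3D* and *RAB6A* did not move less in TPM.

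**Figure D3:**
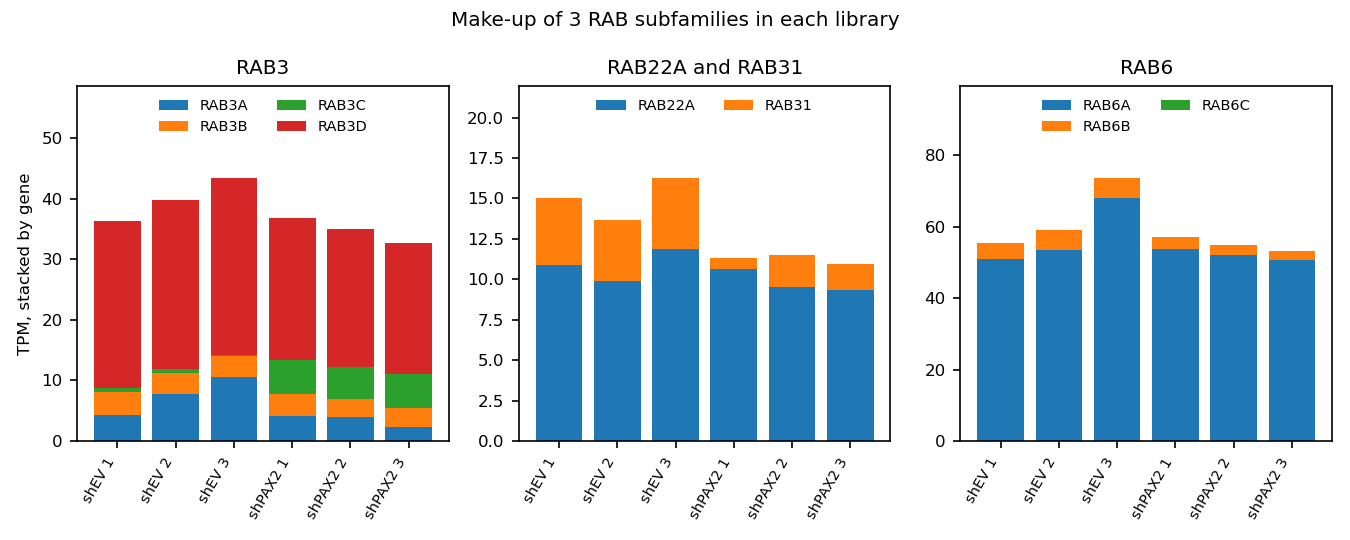
TPM of RAB3, *RAB22A* with *RAB31*, and RAB6 genes, stacked by gene (linear axes from 0), in each of the 6 libraries. *RAB3C* widens from 1.42% of RAB3 transcripts in shEV to 15.9% in shPAX2, *RAB31* narrows from 27.4% to 12.6% of its pair, and *RAB6B* from 8.27% to 5.17% of its group (means of 3 libraries).

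By site, 12 members of the endoplasmic reticulum and Golgi were tested, and 4 of them fell and none rose at an adjusted p under 0.05 (*RAB6B*, *RAB43*, *RAB18* and *RAB2A*). Of all tested genes 30.5% fell and 12.2% rose by this rule, and no site was tested against those shares. *RAB43*, a Golgi GTPase, went from 3.07, 3.24 and 4.54 TPM to 2.75, 2.41 and 2.12 TPM (log2 fold change −0.48, limma adjusted p = 0.0382). This call was lost without shEV replicate 2 or 3 and without shPAX2 replicate 2 or 3 (limma adjusted p from 0.0602 to 0.124), and with either other scaling (up to 0.308). *RAB18*, which marks lipid droplets and the endoplasmic reticulum, fell in log2 terms by 0.26 (limma adjusted p = 0.00922), and *RAB2A*, of transport between endoplasmic reticulum and Golgi, by 0.21 (limma adjusted p = 0.0173). *RAB2A* was not called without shEV replicate 3 or shPAX2 replicate 2 (limma adjusted p up to 0.0673), and neither was called with median-of-ratios scaling (limma adjusted p = 0.0868 and 0.169). *RAB1A* and *RAB1B*, the GTPases of the first transport step out of the endoplasmic reticulum, gave −0.12 and 0.03 and did not pass (limma adjusted p = 0.190 and 0.638). The genes of the group summed to 737 ± 13.9 TPM for shEV and 728 ± 31.0 TPM for shPAX2 (SD over 3 libraries), a difference smaller than the spread in shPAX2.

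Of the 8 members assigned to the early endosome, all tested, 2 fell (*RAB17* and *RAB31*) and none rose, beside 30.5% and 12.2% of all tested genes. Both could be placed elsewhere, since *RAB17* is described above for recycling endosomes and *RAB31* for transport from the trans-Golgi network. The count of this group depends on that assignment. The RAB5 genes, which control fusion of early endosomes, did not pass: *RAB5A* gave 0.17, *RAB5B* −0.07 and *RAB5C* −0.06 on the log2 scale (limma adjusted p = 0.125, 0.608 and 0.563). *RAB20*, a hypoxia-responsive endosomal GTPase, was uneven in shEV, at 10.5, 13.9 and 20.5 TPM, against 9.74, 12.4 and 11.5 TPM in shPAX2, and its groups overlapped. Together the 8 genes reached 300.04 ± 13.6 TPM in shEV against 249.9 ± 15.2 TPM in shPAX2 (SD over 3 libraries), and most of that difference was *RAB17*.

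Among 12 tested members of recycling and polarised exocytosis, 2 rose and 2 fell, again beside 12.2% and 30.5% of all tested genes. *RAB8A*, which drives exocytosis and ciliary growth, was at 72.9, 76.7 and 72.8 TPM in shEV and 82.7, 90.5 and 89.6 TPM in shPAX2 (log2 fold change 0.24, SE 0.06, limma adjusted p = 0.0115; 0.0588 without shPAX2 replicate 2). *RAB35*, of fast endocytic recycling, rose by 0.23 (limma adjusted p = 0.0217). *RAB8B*, the paralog of *RAB8A*, went the other way and fell by 0.24 (limma adjusted p = 0.0179), as did *RAB13*, a GTPase of tight junction traffic, by 0.32 (limma adjusted p = 0.0330). The RAB8 paralogs thus had opposite signs. *RAB11A* and *RAB11B*, the markers of the recycling endosome, gave 0.06 and −0.16 and did not pass (limma adjusted p = 0.452 and 0.161). *RAB25*, the epithelial member of the RAB11 group, stayed at or below 0.102 TPM. Of the 6 fits without 1 library, *RAB35* was not called in 4 (limma adjusted p up to 0.0971), *RAB8B* in 3 (up to 0.0519) and *RAB13* in 4 (up to 0.0980), each including those without shEV replicate 3, shPAX2 replicate 2 or shPAX2 replicate 3; *RAB35* and *RAB13* were also lost without shEV replicate 2. *RAB8B* and *RAB13* were not called with median-of-ratios scaling either (limma adjusted p = 0.117 and 0.129). None of the 3 changed sign in any setting.

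In the late endosome, lysosome and autophagosome group, *RAB7A*, the main GTPase of late endosomes and lysosomes, was at 51.8, 52.4 and 56.9 TPM in shEV and fell to 39.1, 44.4 and 44.3 TPM (log2 fold change −0.33, SE 0.07, limma adjusted p = 0.00538). *RAB24*, linked to autophagy, fell by 0.21 (limma adjusted p = 0.0289), a call lost without shEV replicate 2 or 3 or shPAX2 replicate 3 (limma adjusted p up to 0.104) and with voom, median-of-ratios scaling or quantile normalization (up to 0.256). *RAB7L1*, now named *RAB29*, a Golgi and lysosome GTPase, gave −0.20 and did not pass (limma adjusted p = 0.182). *RAB39A* was the only member of this group that was higher. The 7 genes of the group together gave 198 ± 12.8 TPM for shEV and 196 ± 4.897 TPM for shPAX2 (SD over 3 libraries). That sum includes *RAB39A*, at a mean of 0.877 TPM in shEV and 23.5 TPM in shPAX2. The other tested members had negative log2 fold changes in the main fit, and without *RAB39A* the summed mean was lower in shPAX2.

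*RAB32* and *RAB23* rose. *RAB32*, a GTPase of melanosomes and other lysosome-related organelles, was at 67.2, 52.6 and 54.1 TPM in shEV and 89.0, 99.2 and 95.4 TPM in shPAX2 (log2 fold change 0.71, SE 0.09, limma adjusted p = 0.000526). *RAB23*, a ciliary regulator that restrains Hedgehog signalling, was at 21.9, 18.7 and 22.3 TPM in shEV and 28.3, 27.5 and 29.0 TPM in shPAX2 (log2 fold change 0.43, SE 0.08, limma adjusted p = 0.00242). *RAB38*, the close relative of *RAB32*, had at most 4 reads in a library. Both rising genes lie on chromosome 6. For the other 624 tested genes of that chromosome the median log2 fold change was 0.39, and for 11853 tested genes placed elsewhere it was −0.11. On chromosome 6, 14.7% of these genes lay above *RAB32* and 44.9% above *RAB23*, so *RAB23* was near the middle of its chromosome. The part of this shift in the values of *RAB23* and *RAB32* was not tested, and a change of these genes cannot be told apart here from a change of the chromosome. Fitted without chromosome 6, 17 of 47 tested members were called, of which 4 were higher and 13 lower. Of all genes tested in that fit, 40.8% were called.

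**Figure D4:**
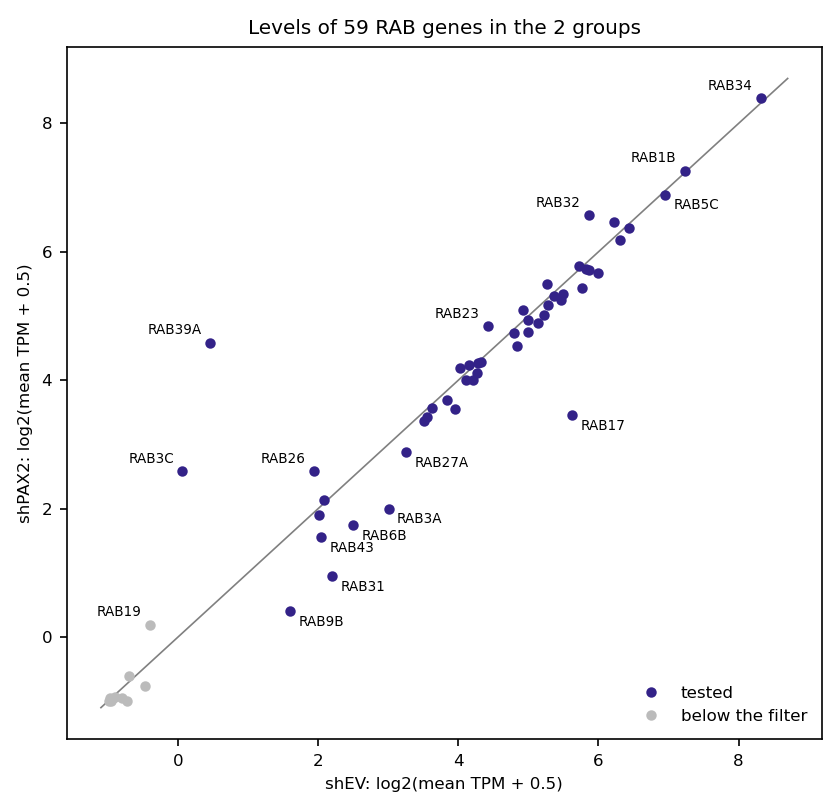
Mean level of each of the 59 RAB genes in shPAX2 (vertical) against shEV (horizontal), both as log2(mean TPM + 0.5) over 3 libraries, with the line of equal level. Most tested genes (dark) lie along the line from low to high levels, *RAB39A* and *RAB3C* lie well above it and *RAB17* well below, and the 10 genes under the filter on low values (grey) sit at the bottom left.

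Levels of the family spanned a wide range. *RAB34*, a Golgi and ciliary GTPase, was the highest in every library, from 315 to 326 TPM in shEV and from 310 to 350 TPM in shPAX2. *RAB1B* followed at 150 ± 3.62 and 153 ± 2.26 TPM, then *RAB5C* at 123 ± 2.74 and 118 ± 13.7 TPM. Each of these 3 genes overlapped between the groups, and each was above the next in every library of both. Further down the order, *RAB9A* (75.8 to 95.2 TPM), *RAB1A* (76.5 to 81.3 TPM) and *RAB8A* (72.8 to 76.7 TPM) overlapped in shEV and their order cannot be set there, while *RAB8A* and *RAB32* were above both of the others in every shPAX2 library. The 5 highest genes held 39.6% of family transcripts in shEV and 41.6% in shPAX2.

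The summed level of all 59 members was 1878, 1854 and 1966 TPM in shEV and 1801, 1905 and 1898 TPM in shPAX2. The groups overlapped, and the difference of −31.7 TPM gave p = 0.6 in an exact two-sided permutation test over libraries. That test cannot go below 0.1 with 3 against 3. The sum includes *RAB39A*, chosen for its change, whose mean went from 0.877 TPM in shEV to 23.5 TPM in shPAX2. The p-value is therefore not free of that choice. Without *RAB39A* the sum fell by more, and that sum was not tested. The sign of this sum depends on the scaling of the libraries: it became 116 TPM with median-of-ratios scaling (exact permutation p = 0.1).

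By level, changes past the fold threshold were spread over the lower ranges. Of 8 tested members with a mean under 5 TPM, 3 passed the fold threshold, against 12.8% of all genes at that level. Among 11 members at 50 TPM or more, none passed it (1.44% of all genes at that level) and log2 fold changes ran from −0.32 to 0.71. *RAB17* and *RAB39A*, with means over all libraries between 5 and 50 TPM, were the other 2 past the threshold.

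The filter was not passed by 10 members. *RAB19*, *RAB37* and *RAB38* had at most 12, 8 and 4 recovered reads in a library. *RAB25*, *RAB27B*, *RAB39B*, *RAB40A*, *RAB44* and *RAB6C* reached at most 0.138 TPM. *RAB33A* was above 0 in a single library (0.306 TPM, shEV replicate 2), so its reads cannot be recovered from ratios. No difference in these genes was detectable at this depth. Several are known from restricted tissues, such as *RAB27B* in secretory and *RAB38* in pigment cells.

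Counting all calls without a fold threshold, 19 of 49 members (38.8%) had an adjusted p under 0.05, *RAB39A* included, against 42.8% of all tested genes. Leaving out *RAB39A*, which is not a test here, 18 of 48 (37.5%) were called, 5 of them higher. The members called were 6 higher and 13 lower, and over all genes 12.2% were higher and 30.5% lower. This split depends on the scaling: with median-of-ratios scaling 11 members were higher and 7 lower, and with quantile normalization 9 were higher and 7 lower. Of all tested genes 41.4% and 36.9% were called under these scalings, and their split by direction is not given here. Median-of-ratios scaling moved the median of all tested genes from −0.10 to 0.01 on the log2 scale, and small changes are best read relative to that shift. The median of the members was −0.11, close to that of all genes, and the median size of change was 0.17 against 0.22. In 22 members (44.9%) the groups did not overlap, against 54.9% of all tested genes. By these counts without a fold threshold, the family did not stand above the table as a whole.

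Of the 18 called members other than *RAB39A*, 9 kept an adjusted p under 0.05 in each setting that tested them: *RAB17*, *RAB3C*, *RAB31*, *RAB9B*, *RAB6B*, *RAB32*, *RAB23*, *RAB7A* and *RAB3D*. One of these settings, the filter at a TPM of 5, was passed by *RAB3C* only through shPAX2, so there it had to be higher. All 18 kept their direction.

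The genes that act on RABs were counted next, in lists that partly overlap. Of 146 such genes tested, 68 (46.6%) had an adjusted p under 0.05, of which 10 were higher and 58 lower. Over all tested genes 42.8% were called, 12.2% higher and 30.5% lower, so the share called was near that of the table. With median-of-ratios scaling 20 were higher and 42 lower, and with quantile normalization 16 were higher and 32 lower. Under these scalings 41.4% and 36.9% of all tested genes were called, with no split by direction given here. Whether the split differs from that of all genes was not tested. Only 5 passed the fold threshold (3.42%, against 4.54% of all tested genes).

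**Figure D5:**
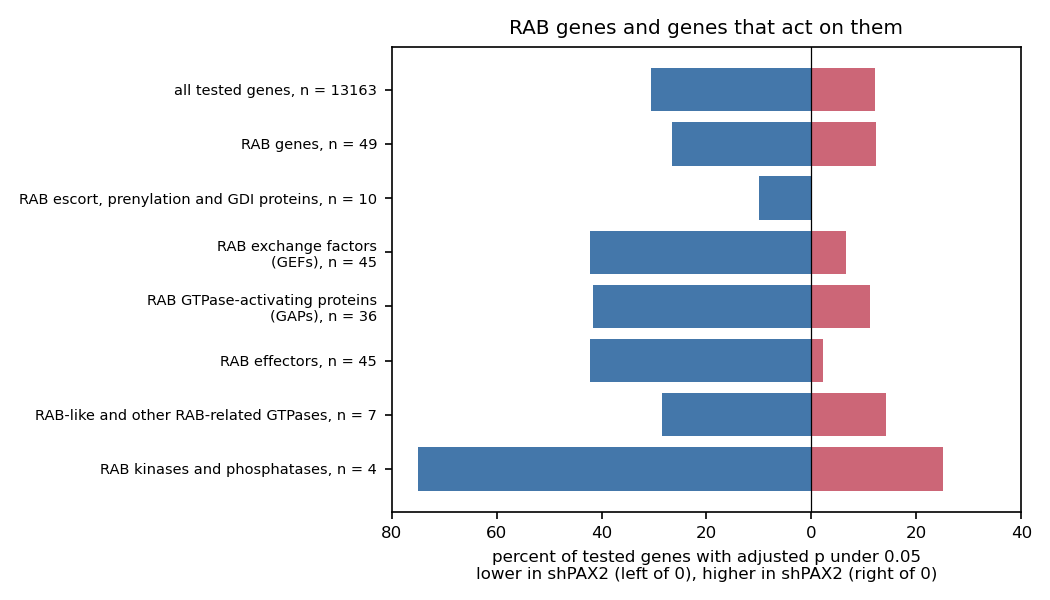
Percent of tested genes with an adjusted p under 0.05 that were lower (blue, left of 0) or higher (red, right of 0) in shPAX2, for all tested genes, the RAB genes and the lists of genes that act on them or resemble them. The number tested stands beside each name; the RAB genes (26.5% lower, 12.2% higher) lie close to all tested genes (30.5% and 12.2%), while 42.2% of GEFs and of effectors were lower.

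Among 45 tested GEFs, 3 rose and 19 fell (6.67% and 42.2%, against 12.2% and 30.5% of all tested genes). *DENND2A*, counted among those that fell, passed the filter only through shEV and so had to be lower. Those that rose were *DENND6A* (log2 fold change 0.33), *RIN1* (0.61) and *MON1A* (0.25), and *RIN1* and *MON1A* were not called without shEV replicate 3 or shPAX2 replicate 2, nor *RIN1* without shPAX2 replicate 3 (limma adjusted p up to 0.117). *C9orf72*, which with *SMCR8* and *WDR41* forms a complex acting on RABs in autophagy, fell from 6.01 to 2.18 TPM (log2 fold change −1.27, limma adjusted p = 0.000113). Its partner *WDR41* fell by 0.36 (limma adjusted p = 0.00239) while *SMCR8* gave 0.04 (limma adjusted p = 0.779). *ST5*, now named *DENND2B*, an exchange factor for *RAB13*, fell from 7.92 to 3.58 TPM (log2 fold change −1.04, limma adjusted p = 9.36e-05), and stayed called but short of the fold threshold under both other scalings, with a pseudocount of 1, without shEV replicate 3 and without shPAX2 replicate 3 (−0.995 to −0.81), and *RAB13* itself is among the members that fell. *MADD*, the exchange factor of RAB3 and RAB27 proteins, fell by 0.24 (limma adjusted p = 0.00909; 0.101 with median-of-ratios scaling).

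Among 36 tested GAPs, 4 rose and 15 fell (11.1% and 41.7%, against the same 12.2% and 30.5%). *TBC1D7* and *TBC1D22B*, which rose by 0.43 and 0.57 in log2 terms (limma adjusted p = 0.00301 and 0.000828), lie on chromosome 6, the chromosome of *RAB23* and *RAB32*. *TBC1D13* rose by 0.27 (limma adjusted p = 0.0246), a call lost without shEV replicate 2 or 3 or shPAX2 replicate 2 or 3 (limma adjusted p up to 0.102). *TBC1D4*, the GAP that restrains RABs of glucose transporter traffic until insulin acts, rose from 0.551 to 4.50 TPM (log2 fold change 2.25, limma adjusted p = 9.18e-06). *GRTP1*, a TBC-domain protein, fell from 12.8 to 5.86 TPM (log2 fold change −1.07, limma adjusted p = 2.32e-05; −0.96 with median-of-ratios scaling and −0.86 with quantile normalization, short of the fold threshold). *RAB3GAP1* and *RAB3GAP2*, which form the RAB3 GAP, each gave −0.06 and did not pass (limma adjusted p = 0.418 and 0.557).

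Of 45 tested effectors, 1 rose (*RAB11FIP4*, an effector of RAB11, by 0.62 in log2 terms, limma adjusted p = 0.00357) and 19 fell (42.2%, against 30.5% of all tested genes), none past the fold threshold. *EXPH5*, counted among those that fell, passed the filter only through shEV and so had to be lower. The largest fall among them was that of *TBC1D9* (−0.91), a TBC-domain protein also counted with the GAPs. Among 4 tested kinases and phosphatases of RABs, 1 rose and 3 fell, beside 12.2% and 30.5% of all tested genes. Of the falls, *PPM1J* was not called without shEV replicate 2 or 3 or shPAX2 replicate 2 or 3 (limma adjusted p up to 0.0726). It was also lost with quantile normalization (limma adjusted p = 0.0784), and *PINK1* was lost with median-of-ratios scaling (limma adjusted p = 0.112). *PPM1H*, a phosphatase that removes the RAB phosphate added by LRRK2, rose from 2.61 to 8.72 TPM (log2 fold change 1.54, limma adjusted p = 0.00132). The escort, prenylation and GDI proteins that every RAB depends on had 1 of 10 called, beside 42.8% of all tested genes. It was *CHML*, an escort protein, which fell by 0.41 (limma adjusted p = 0.0010). *GDI2*, the most abundant of them, was at 379 ± 12.5 and 365 ± 30.2 TPM (limma adjusted p = 0.535). Of 7 tested RAB-like and related GTPases, 1 rose and 2 fell, again beside 12.2% and 30.5% of all tested genes. *RAN*, the nuclear transport GTPase, rose by 0.35. The falls were 0.48 for *RABL2A* and 0.31 for *IFT27*, a subunit of the ciliary transport machinery. Neither call was stable: without shEV replicate 3, shPAX2 replicate 2 or shPAX2 replicate 3 both were lost, *IFT27* also without shEV replicate 1, and over the other settings limma adjusted p reached 0.227 for *RABL2A* and 0.132 for *IFT27*.

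The targeted gene *PAX2* was at 4.03, 3.66 and 2.74 TPM in shEV and 0.916, 0.723 and 1.17 TPM in shPAX2 (log2 fold change −1.47, SE 0.18, limma adjusted p = 0.000294). Depth ran from 10730909 to 18221859 reads in shEV and from 19422615 to 29405787 in shPAX2, so every shPAX2 library was deeper and depth cannot be told apart from group. The epithelial label was not borne out by markers: of 11 listed genes only *KRT18* was tested, at 11.2 and 14.9 TPM, and *EPCAM*, *CDH1*, *KRT7*, *KRT8* and *KRT19* had at most 6 recovered reads in a library, whereas the mesenchymal *VIM* stood at 4212 and 3808 TPM. Of 8 listed mesenchymal markers, 6 were tested. The 5 listed leukocyte markers summed to between 0.926 and 1.71 TPM in shEV and between 1.73 and 2.45 TPM in shPAX2, nearly all of it *CD68*, a lysosomal protein of macrophages that other cells also make. *CD68* rose by 0.59 (limma adjusted p = 0.0359), a call lost without shEV replicate 1 or 3 or shPAX2 replicate 2 or 3 (limma adjusted p up to 0.125), while *PTPRC*, the defining leukocyte marker, was near 0 in every library. The 3 listed endothelial markers stayed at or below 0.0611 TPM in sum. The 5 listed neuronal markers summed to between 172 and 180 TPM in shEV and between 248 and 265 TPM in shPAX2. Of these, *SYP*, a synaptic vesicle protein, went from 5.52 to 34.9 TPM (log2 fold change 2.56, limma adjusted p = 2.87e-07) and *TUBB3* from 169 to 221 TPM, while *SNAP25*, *SYT1* and *RBFOX3* had at most 9, 1 and 1 recovered reads. These values stand beside those of *RAB3C* and *RAB39A*, which were higher in shPAX2. *RAB3A* and *RAB6B*, described above for synaptic vesicles and brain, had log2 fold changes of −0.96 (not called) and −0.75. The part of the markers in the results of these RAB genes was not tested. In bulk RNA, fewer cells of a kind and less RNA per cell cannot be told apart.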

How the data were processed

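RNA-seq of 3 shEV and 3 shPAX2 AN3CA libraries was analysed. The authors deposited TPM values for 17471 genes. The submitters' processing notes name bcl2fastq, STAR, Subread, featureCounts, edgeR and hg19, while the study's methods, written for another line, describe TruSeq stranded total RNA libraries and RSEM. How multi-mapped reads were counted is not given in the sources used here. Ratios of TPM between libraries were ratios of whole numbers in 100.0% of genes (largest relative deviation 7.15e-14), so whole reads were recovered up to a factor common to a gene's 6 values, which a gene above 0 in 1 library cannot reveal. Floors and reads cover counting error only.

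Genes reaching 0.5 TPM in 3 or more libraries were fitted on log2(TPM + 0.5) with limma 3.58.1 in R 4.3.3 (lmFit and eBayes, trend and robust both on), comparing shPAX2 with shEV, two-sided, with Benjamini-Hochberg adjustment over all 13163 genes. The members, site groups and gene lists were chosen with earlier results of these data known. Named genes were *RAB39A*, *RAB39B*, *PAX2*, members past the fold threshold, the 10 largest changes at an adjusted p under 0.05, the 5 highest levels, up to 3 listed regulators past the threshold in each direction, and subfamily members for their levels. Other members and partners were named after their values were seen. The fit was tested on simulated data. Replicate numbers did not pair libraries (correlations of deviations −0.0523, 0.0815 and 0.00140).

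Positions on GRCh37 came from GENCODE release 44 (15141 symbols direct, 1226 by an older name), and promoter stretches were taken from that genome and checked against RefSeq entries. Alternatives were other pseudocounts, filters and scalings, voom on recovered reads, the replicate block, leaving out each library and, chosen after seeing the data, leaving out chromosome 6.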

Additional observations from a re-analysis of the deposited data

How the results depend on the processing

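The count of members past the fold threshold (5) became 3 with a filter at a TPM of 5, where fewer members were tested (42), 4 with a pseudocount of 1 and with quantile normalization (without *RAB9B*), 6 with voom, and ran from 5 to 7 without single libraries. The 7, without shEV replicate 1, added *RAB26* and *RAB3A*. Over these settings the share of all tested genes past the threshold ran from 2.85% (filter at a TPM of 5) to 5.99% (voom). With the filter at a TPM of 5, *RAB39A* and *RAB3C* passed the filter only through shPAX2 and so had to be higher. Members called ran from 13 to 22 without single libraries, where the share of all tested genes called ran from 29.5% to 43.5%. The median log2 fold change of the tested members ran from −0.15 to −0.08 in these fits. That median moved to −0.0019 with median-of-ratios scaling and −0.016 with quantile normalization, where the median of all genes moved as well. Called regulators ran from 50 to 68 without single libraries, beside the same range of shares of all tested genes. The summed TPM difference reversed to 116 with median-of-ratios scaling. Without single libraries it ran from −54.2 to 1.75, and it reversed to 1.68 without shEV replicate 3 and to 1.75 without shPAX2 replicate 1. Signs also turned for *RAB5C* (0.048 with median-of-ratios scaling, and −0.14 to 0.023 without single libraries) and *RAB9A* (0.051 and −0.15 to 0.014), neither of them called. The causes were not tested. *RAB39A* was 4.78 with a pseudocount of 0.1 and 4.77 with voom. Over the alternatives for the named genes, 310 values kept their direction, with some of *RAB9B*, *ST5* and *GRTP1* falling under a log2 change of 1. All of these but the *RAB39A* values, which carry no test, also kept their side of the adjusted p threshold. Another 10 lost a call (*RAB43* in 8, *RAB27A* with quantile normalization, *RAB8A* without shPAX2 replicate 2), 2 gained 1 (*RAB34* and *RAB1B* with median-of-ratios scaling) and 4 turned, as above. The 310 include the filter at a TPM of 5, which *C9orf72* and *ST5* passed only through shEV and *PPM1H* only through shPAX2. In that setting their direction was fixed, as was that of *RAB39A* and *RAB3C*.

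With replicate number as a block, 5 of 49 members passed the fold threshold, beside 4.47% of all tested genes. In this fit 17 of 49 members and 62 of 146 regulators were called, beside 38.8% of all tested genes. The block lost 2 member calls, *RAB13* and *RAB43* (limma adjusted p = 0.0719 for *RAB43*). The libraries share numbers only, and no pairing was found. Depth limits the 10 untested members and the shEV levels of *RAB39A* and *RAB3C*.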

Other observations

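The nearest tested neighbours of the other members past the fold threshold were set beside them. *RAB17* lies 26.0 kb from *LRRFIP1*, which encodes a nucleic acid binding protein and fell from 33.2 ± 1.89 to 20.9 ± 0.836 TPM (SD, n = 3 each; log2 fold change −0.65, limma adjusted p = 0.000105), while *COPS8*, a signalosome subunit 474 kb to the other side, gave −0.18 (limma adjusted p = 0.0698). *RAB31* lies between *PPP4R1*, a phosphatase subunit that gave 0.05 (limma adjusted p = 0.611), and *VAPA*, a membrane contact protein that rose by 0.29 (limma adjusted p = 0.0272, lost in 5 of 6 fits without 1 library, all but that without shPAX2 replicate 1) where *RAB31* fell. *PDE4D*, the phosphodiesterase gene 110 kb from *RAB3C*, was at 86.4 ± 10.2 and 84.5 ± 2.06 TPM (limma adjusted p = 0.827), and *MIR548AE2*, a microRNA gene 52.1 kb to the other side and listed at 0 in some libraries, gave 0.63 (limma adjusted p = 0.624). Neither neighbour of *RAB3C* passed. *TMSB15B*, a thymosin gene 86.3 kb from *RAB9B*, gave −0.15 (limma adjusted p = 0.169), and *MORF4L2-AS1*, 131 kb to the other side, gave 0.08 (limma adjusted p = 0.812).

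Some RAB genes varied between the shEV libraries more than between shPAX2 libraries. *RAB3A* and *RAB20* were highest, and *RAB26* and *RAB3C* lowest, in shEV replicate 3. *RAB26* had an SD of 1.51 TPM over shEV libraries and 0.119 TPM over shPAX2 libraries, and that of *RAB20* was 5.07 and 1.37 TPM. These genes were picked after their values were seen, and with 3 libraries per group the difference in spread was not tested.

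Outside the RAB genes, 2 fibrillar collagen genes in the mesenchymal marker list moved in opposite directions past the fold threshold: *COL1A2* fell from 836 to 390 TPM (log2 fold change −1.11, limma adjusted p = 1.75e-05) and *COL3A1* rose from 35.1 to 242 TPM (log2 fold change 2.79, limma adjusted p = 0.000122).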
